A study of Rattus norvegicus with 3 samples.

Results

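CCL19 and CCL21, the chemokines that bind the receptor CCR7, together with CCR7 itself and the atypical receptor ACKR4, which binds the same chemokines and removes them, were followed through the thymus of the Lewis rat, an inbred strain. The members were the 4 genes Ccl19, Ccl21, Ccr7 and Ackr4, chosen by name out of 34034 gene names that are shared by the 2 droplet single-cell RNA libraries. Both libraries came from thymi of rats aged 8 weeks. The first held stromal cells, released with Liberase TH and DNase I and sorted for the absence of CD45, a surface protein of blood-derived cells; the second held thymocytes, the developing T cells, released with collagenase D and DNase I. The third sample, a spatial section, has no gene values used here. No genotype or treatment is stated for the rats, and their number and sex, and whether thymi were pooled, are not given in the labels. Each group had 1 sample, so no test was run, no replicate error exists, and every ratio describes these libraries; intervals are 95% intervals for counting error only.

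In the thymus, CCR7 ligands made by the medulla guide thymocytes that have been positively selected in the cortex, and these cells gain CCR7 as they mature. CCL21 carries a long basic tail that holds it on matrix and cell surfaces, whereas CCL19 lacks that tail and is soluble. ACKR4 takes up both ligands without starting a G protein signal and sends them for degradation, and in the mouse thymus it is known from cortical epithelium. Ligand expression in medullary epithelium and in stroma of lymphoid organs is known to be raised by the lymphotoxin beta receptor, RANK and CD40 through the noncanonical NF-kB pathway.

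Both ligand genes lie on chromosome 5, with 1 annotated protein-coding gene, LOC689481, between them. Of the 4 members, 3 (Ccl19, Ccl21 and Ackr4) had an entry in the RefSeq promoter table of build GRCr8, which is not the build used for the counts (mRatBN7.2). The 250 bases before the start of each ligand gene are shown because the ligands were high in the same labels. The Ccl19 stretch is chr5:61761165-61761414 and the Ccl21 stretch chr5:61777516-61777765, both on the minus strand and written 5′ to 3′ along the gene, with capitals marking the letters CATAAAT.
Ccl19: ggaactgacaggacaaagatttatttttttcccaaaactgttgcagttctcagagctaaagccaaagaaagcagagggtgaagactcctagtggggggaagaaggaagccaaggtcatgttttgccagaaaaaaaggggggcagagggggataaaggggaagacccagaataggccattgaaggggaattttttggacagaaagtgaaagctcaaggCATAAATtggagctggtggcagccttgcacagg
Ccl21: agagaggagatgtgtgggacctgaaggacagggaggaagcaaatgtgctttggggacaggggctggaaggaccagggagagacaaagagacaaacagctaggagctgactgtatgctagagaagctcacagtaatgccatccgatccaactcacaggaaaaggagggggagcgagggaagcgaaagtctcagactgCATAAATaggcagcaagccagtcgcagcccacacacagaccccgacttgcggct
The letters CATAAAT, picked after the sequences had been seen, started 33 bases before the start of Ccl19 and 54 bases before that of Ccl21, on the strand of the gene. They stood on either strand in 3.16% of 33469 promoters, read from 250 bases before to 50 after the start, and not in that of Ackr4. TATAAA stood in 14.2% of promoters and in none of these 3. The pattern GGGNNNNNCC, the frame of an NF-kB site, stood in 47.3% of promoters; Ccl19 had 2 matches on its own strand and 1 on the other, Ackr4 had 1, and Ccl21 had 0. None of these matches is evidence of a bound factor.

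Of 16160 stromal barcodes, 13226 had a label from the authors; these held 131624350 UMIs (unique molecular identifiers, 1 for every RNA molecule captured) and a median of 9087.5 per cell. The thymocyte library held 8574 barcodes, 8546 of them labelled, with 64440495 UMIs and a median of 3994. The libraries shared 38 barcodes, 28 of them labelled in both. Levels are UMIs of a gene per 1000000 UMIs of a label (CPM), and the names are those of the authors' annotation, built with mouse reference data. Labels of at least 20 cells were used, 24 in the stroma and 21 among the thymocytes. The epithelial labels mTEC1, mTEC-prol, cTEC and early Pr held between 8580 and 10786 CPM of 6 epithelial markers. Lower sums were found in mTEC2 (5884), aaTEC1 (5802), the mimetic labels (5230 to 6104) and aaTEC2 (1950). The mesenchymal label TMC4 held 45.1, and none of the 6 was at 0 there. Of 6 mesenchymal markers, early Pr held 3132 CPM, cTEC 2868, mTEC2 2625, mTEC1 2140 and mTEC-prol 239. TMC4 held 5022 CPM of 6 mesenchymal markers and 4370 of 4 mural (vessel-wall) markers. This was less mesenchymal RNA than in TMC1, TMC2 and capFb (30689 to 37418) and less mural RNA than in vSMC/PC (8501). Most of the mural sum of TMC4 was Tagln, at 4664 CPM in cells over 1000 CPM of Ccl21 and 3017 in the others. The other mural markers, Acta2, Rgs5 and Myh11, were at 14.2 to 141 CPM in these sets, against 481 to 1383 in the same sets of vSMC/PC. The stromal label B cell held 825 CPM of B lineage markers but 5447 of mesenchymal ones, and the stromal label Thymocyte held 7064 of T lineage markers and 9572 of mesenchymal ones, so ligand values under these names are levels of mixed RNA.

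Ccl21, the tethered ligand, was spread over both mesenchyme and epithelium. TMC4 held 54.8% of all 465938 labelled Ccl21 UMIs, mTEC1 17.3%, TMC3 9.43% and vSMC/PC 8.6%. Its level was 22085 CPM in TMC4 (95% interval 21999 to 22171; 1249 cells), 12495 in mTEC1 (482 cells) and 11881 in vSMC/PC (452 cells). It then fell through 10514 in nmSC (39 cells), 6515 in mTEC-prol (76 cells) and 4160 in TMC3 (1152 cells) to 1807 in capEC, the highest endothelial label. The 3 labels with the most mesenchymal markers stood near the bottom, at 106 CPM in TMC2, 94.2 in capFb and 85.7 in TMC1. From the top to the bottom of this order the neighbours vEC and aaTEC2, cTEC and mTEC2, mTEC2 and early Pr, TMC1 and MEC, and MEC and aaTEC1 did not differ beyond counting error.

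Cells with a Ccl21 UMI were common also in labels of low level. At least 1 was found in 53.2% of TMC1 cells (median 9749 UMIs per cell), 51.5% of TMC2 and 54.4% of capFb, against 88.9% of TMC4 cells (median 8717). With every cell thinned to 1000 UMIs the shares were 8.94%, 10.1% and 8.17%, against 69.6% in TMC4, 54.6% in mTEC1 and 33.3% in vSMC/PC. The shares in early Pr (55.6%, 8.47% thinned) and cTEC (57.8%, 11.9% thinned) lay near those of TMC1, TMC2 and capFb, although their levels (335 and 392 CPM) were higher. The share of free RNA in these UMIs was not measured. The cells were also compared by a level of more than 1000 CPM in the single cell, a cut chosen after the values were seen; 13.1% of TMC4 cells and 9.96% of mTEC1 cells lay within a factor of 2 of it. By this measure 64.9% of TMC4 cells were rich in Ccl21, 51.5% of mTEC1, 46.1% of mTEC-prol, 25% of vSMC/PC, 18.8% of TMC3, 11.5% of mTEC2 and 0.363% of TMC1. Within the high labels the cells were thus far from uniform: the median cell held 4440 CPM in TMC4 and 1139 in mTEC1, but only 184 in vSMC/PC and 121 in TMC3.

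**Figure D1:**
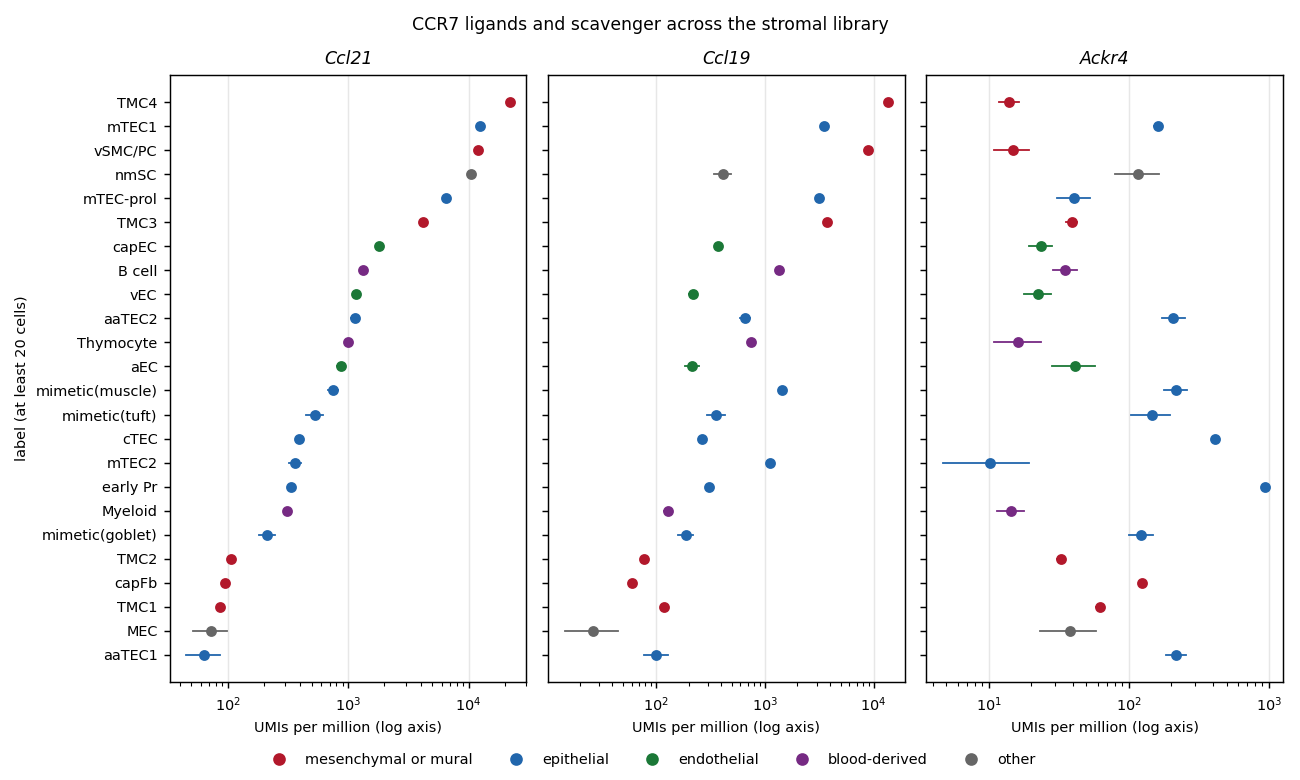
Levels of Ccl21, Ccl19 and Ackr4 (CPM, log axes) in the 24 stromal labels of at least 20 cells, ordered by Ccl21; points are the level of a label, bars the 95% counting interval, colours the family of the label. Ccl21 and Ccl19 were highest in TMC4 (22085 and 13615), where Ackr4 was at 14.0, and Ackr4 was highest in early Pr (947).

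Ccl19, the soluble ligand, leaned further to the mesenchyme. TMC4 held 57.2% of its 275147 labelled UMIs, TMC3 14.4%, vSMC/PC 10.8% and mTEC1 8.14%. The levels were 13615 CPM in TMC4 (13548 to 13682), 8828 in vSMC/PC, 3748 in TMC3, 3483 in mTEC1, 3144 in mTEC-prol and 1113 in mTEC2, while TMC1 held 120, TMC2 78.3 and capFb 60.7. Nearly the whole TMC4 label carried it: 90.2% of TMC4 cells exceeded 1000 CPM, against 65.8% of mTEC-prol, 52.5% of TMC3, 46.7% of mTEC1, 43.4% of vSMC/PC and 36.1% of mTEC2. Thinned to 1000 UMIs, 91.4% of TMC4 cells still held a Ccl19 UMI, compared with 7.27% of TMC1 and 5.45% of capFb. Neither ligand, nor Ackr4, had a highest label at least 3-fold above the next, a rule met by 5.59% of 16162 genes in this library; the leads were 1.77 (1.75 to 1.78) for Ccl21, 1.54 (1.52 to 1.56) for Ccl19 and 2.30 (2.19 to 2.41) for Ackr4.

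The ligands did not keep 1 proportion. TMC4 held 1.62 Ccl21 UMIs per Ccl19 UMI (1.61 to 1.63), vSMC/PC 1.35 and TMC3 1.11, whereas mTEC1 held 3.59 (3.53 to 3.64) and mTEC-prol 2.07. The mTEC1 value was 2.21-fold that of TMC4 (2.18 to 2.25). The order was reversed in mTEC2, the Aire-rich epithelial label, which held 0.325 Ccl21 UMIs per Ccl19 UMI (0.287 to 0.369). It was also reversed, with intervals below 1, in mimetic(muscle) (0.519), aaTEC1 (0.625) and TMC1 (0.716). Compared with mTEC2, mTEC1 held 34.5-fold more Ccl21 (30.9 to 38.5) but only 3.13-fold more Ccl19 (2.94 to 3.34); as a mean over cells the Ccl21 ratio was 20.1. The ratio was higher still in nmSC (25.5), vEC (5.38), capEC (4.84) and aEC (4.03), but there it rested on the few cells with UMIs of both Prox1 and Lyve1 described further on. Without those cells it was 0.687 in nmSC (0.516 to 0.915), 2.67 in vEC (2.45 to 2.91), 1.68 in capEC (1.58 to 1.78) and 0.959 in aEC (0.774 to 1.19). These are ratios of UMIs within a label, so they compare labels and not the abundance of the 2 transcripts per length.

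**Figure D2:**
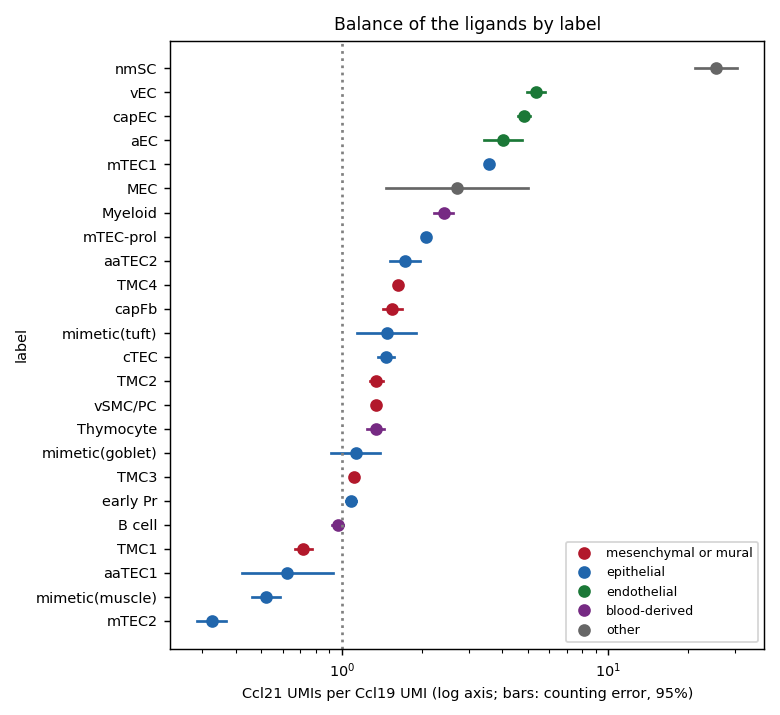
Ccl21 UMIs per Ccl19 UMI (log axis) in each stromal label of at least 20 cells; points are the ratio, bars the 95% counting interval, and the dotted line marks equal numbers. nmSC lies farthest right (25.5), followed by the 3 endothelial labels and mTEC1 (3.59), with TMC4 at 1.62 and mTEC2 farthest left at 0.325; without 24 cells holding both Prox1 and Lyve1 the endothelial labels would lie between 0.959 and 2.67, and nmSC without 4 such cells at 0.687.

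Single cells showed how the ligands were combined. Among TMC4 cells 61.7% exceeded 1000 CPM of both ligands, 28.5% of Ccl19 only and 3.12% of Ccl21 only. In TMC3 46.1% of cells were high in neither, 35.2% in Ccl19 only and 17.4% in both. In vSMC/PC 23.9% were high in both, 19.5% in Ccl19 only and 1.11% in Ccl21 only. mTEC1 differed in that cells with Ccl21 only (12.0%) outnumbered those with Ccl19 only (7.26%), beside 39.4% with both. In mTEC2, 26.2% were high in Ccl19 only and 9.84% in both. Across cells thinned to 1000 UMIs, Spearman's rho between the ligands was 0.639 in 450 vSMC/PC cells, 0.634 in 476 mTEC1 cells, 0.452 in 1249 TMC4 cells and 0.411 in 1141 TMC3 cells, all from 1 library. In the mesenchymal labels without high ligand levels it was near 0 (-0.02 in TMC1 and 0.04 in TMC2). The ligands were at 78.3 to 120 CPM there, so few thinned cells held a UMI of either. These values of rho therefore cannot show whether the ligands went together in TMC1 and TMC2.

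**Figure D3:**
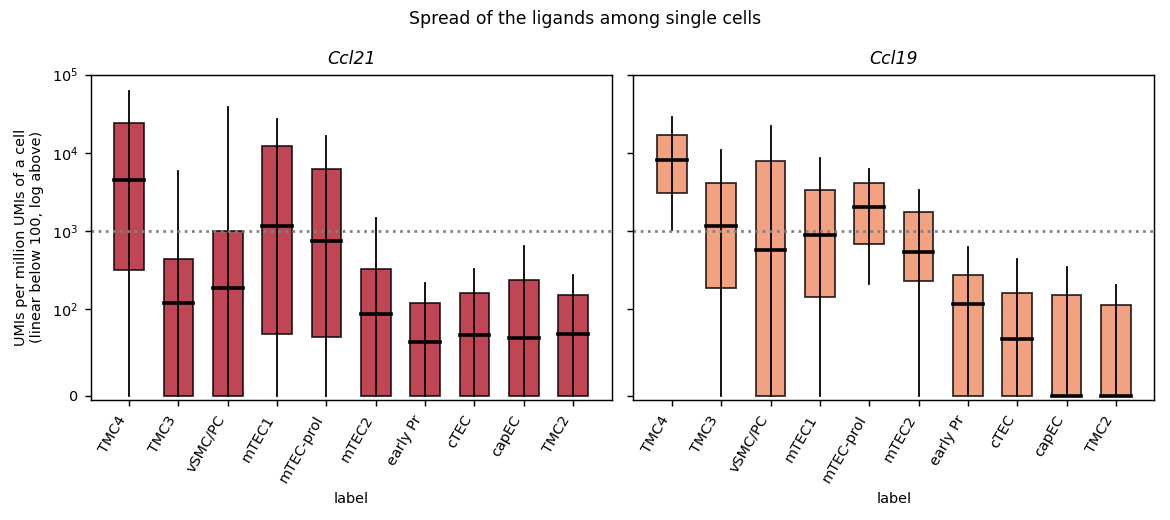
Ccl21 and Ccl19 in single cells of 10 stromal labels, in CPM of the cell (linear below 100, log above). Boxes span the 25th to the 75th percentile, the thick line is the median, whiskers reach the 10th and 90th percentiles, and the dotted line marks 1000; the TMC4 median is 4440 for Ccl21, while that of TMC3 is 121.

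The mesenchymal cells above the cut differed from their label mates in other genes, although a cut on a level is a range and not a cell type. In vSMC/PC the 113 cells over 1000 CPM of Ccl21 held Ccl19 at 22529 CPM and the other 339 at 3100. Tagln, an actin-binding protein of contractile cells, stood at 9752 against 3498 and the adhesion molecule Vcam1 at 352 against 124. The contractile and pericyte genes Myh11 (481 against 1214) and Rgs5 (490 against 1064) ran the other way. Their medians over cells were 6332 against 1534 for Tagln, 262 against 0 for Vcam1, 159 against 237 for Myh11 and 335 against 983 for Rgs5. TMC3 followed in part: its 216 high cells held Ccl19 at 8622 CPM against 2397 in the other 936, Tagln at 2916 against 1163, and Alk, a receptor tyrosine kinase, at 51.9 against 9.31. Vcam1 was nearly level there (282 against 270), and Myh11 (38.8 against 6.77) and Rgs5 (44.5 against 15.7) were higher in the high cells, opposite to vSMC/PC. In TMC4 the 810 high and 439 other cells were closer, with Ccl19 at 16158 against 8545, Tagln at 4664 against 3017 and Vcam1 at 463 against 401; Myh11 (51.3 against 14.2) and Rgs5 (113 against 68.6) again ran opposite to vSMC/PC. Epcam, which marks epithelium, was at 3.90 and 3.37 in these 2 sets of TMC4 cells, and its median over cells was 0 in all 6 sets. Tagln was also the gene whose pattern over the 18 labels of at least 50 cells was most like that of either ligand, with Pearson's r of 0.955 for Ccl19 and 0.925 for Ccl21 on log levels among 16162 genes, and Ccl19 followed for Ccl21 at 0.916. Next for Ccl19 came Gpr176 (0.926) and Sorcs2 (0.919).

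Against the pooled mesenchymal labels TMC1, TMC2 and capFb, TMC4 held 226-fold more Ccl21 (220 to 232) and 163-fold more Ccl19 (158 to 168), and Ackr4 was 4.71-fold higher in the pooled labels (4.03 to 5.52). In this comparison 6.6% of 13234 genes were at least 3-fold higher in TMC4 and 8.24% at least 3-fold lower; of the 3 members tested 2 were among the former and Ackr4 among the latter. Of 10 genes of ligand induction, 7 were tested and 4 were at least 3-fold higher, with a median log2 ratio of 2.01 beside 0.09 over all genes. The 4 were Tnfsf11, which encodes the RANK ligand (186 UMIs against 7, 131-fold), and the noncanonical NF-kB genes Nfkb2 (5.55-fold), Relb (4.43-fold) and Map3k14, the kinase NIK (4.02-fold). Ltbr, the lymphotoxin beta receptor, was at 92.3 CPM in TMC4 and 99.5 in the pooled labels, a ratio of 0.928 (0.869 to 0.991). Among 9 tested guidance genes, 3 passed upwards, namely the cytokine gene Il7 (14.8-fold), Icam1 (4.25-fold) and Vcam1 (3.31-fold). The 2 that passed downwards were Cxcl13 (12.6 against 295 CPM) and Ccl17 (0.519 against 1.72 CPM). Ccl17 rested on 6 UMIs against 98, and the interval of its ratio (0.301, 0.132 to 0.687) reached past the 3-fold cut. The median log2 ratio of the 9 genes was -0.17. Of the other atypical chemokine receptors, Ackr1, Ackr2 and Ackr3 were each at least 3-fold lower in TMC4 and Ccrl2 was at a ratio of 1.57, with a median log2 ratio of -5.18.

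A small set of endothelial cells held most endothelial Ccl21. Of the 1070 cells labelled capEC, vEC or aEC, 24 held UMIs of both Prox1 and Lyve1, genes known from lymphatic endothelium, a split made after the values were seen. These 24 cells held 62.3% of the endothelial Ccl21 UMIs, at 46384 CPM with a median cell of 56898, and 23 of them exceeded 1000 CPM. The 1031 cells with neither gene were at 443 CPM, and 38 of them exceeded 1000, so the level differed 105-fold, or 159-fold without the deepest cells of each label. Ccl19 was at 385 CPM in the 24 cells and 297 in the 1031. Flt4, a lymphatic growth factor receptor (275 against 5.98 CPM), and Pdpn (649 against 13.0) were higher in the 24 cells, and Pecam1, shared by endothelia, was at 551 against 1159. The high Ccl21 of the label nmSC had the same form: 4 of its 39 cells held both genes and 2902 of its 2981 Ccl21 UMIs, at 84787 CPM, while the other 35 cells were at 317 CPM and held Cdh19, known from Schwann cells, at 525 CPM.

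Ackr4, the scavenger, had its largest share in 1 epithelial label. early Pr held 57.3% of the 20069 labelled Ackr4 UMIs at 947 CPM (930 to 965; 1018 cells), with a UMI in 94.3% of cells (median 10977 UMIs per cell), against 9.85% in TMC4 (median 8717). cTEC followed at 412 CPM (394 to 430) and 70.1% of cells. Then came aaTEC1 (219), mimetic(muscle) (217) and aaTEC2 (209), which did not differ between neighbours in this order, and mTEC1 at 163. The levels in mTEC2 (10.3), TMC4 (14.0), Myeloid (14.4), vSMC/PC (14.8) and the stromal label Thymocyte (16.3) formed the low end and did not differ between neighbours. Thus Ackr4 was 5.83-fold higher in early Pr than in mTEC1 (5.47 to 6.21) and 92.1-fold higher than in mTEC2 (47.9 to 177). The label aaTEC2, epithelial by name, held 23985 CPM of the mesenchymal markers and 1950 of the epithelial ones. Among labels not named as epithelium capFb was highest, 124 CPM with a UMI in 64.7% of its cells, 8.81-fold that of TMC4 (7.51 to 10.3). TMC1 was at 62.7 and TMC2 at 33.0. The 24 endothelial cells with Prox1 and Lyve1 were at 304 CPM (228 to 398), but their 53 UMIs lay in 4 cells. Over the 18 labels of at least 50 cells the log level of Ackr4 had Pearson's r of -0.29 with Ccl21 and -0.30 with Ccl19; the labels share 1 library. The genes most like Ackr4 over these labels were Rtl4 (0.907), Lhfpl1 (0.904) and Slc2a12 (0.894).

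Other atypical receptors had other places. Ackr1, which carries inflammatory chemokines across venules, was highest in vEC (421 CPM). Ackr2, a scavenger of inflammatory chemokines, was highest in capFb (87.1), where Ackr3, the scavenger of CXCL12, was also highest (412, next to 395 in MEC). Ccrl2 was highest in vSMC/PC at 20.5 CPM.

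The authors' clusters divided mTEC1 into cells with much Ackr4 and cells with much Ccl21; sets of the other epithelial labels did not all follow this division. Within mTEC1, the 176 cells of cluster TEC-b held Ackr4 at 380 CPM and Ccl21 at 1532, while the 232 cells of TEC-d held Ackr4 at 25.7 and Ccl21 at 18776. Ackr4 was 14.8-fold higher in the former and Ccl21 12.3-fold higher in the latter. The median cell held 191 CPM of Ackr4 in TEC-b and 0 in TEC-d, and 70.6 and 7439 of Ccl21. Ccl19 ran with Ccl21, at 487 and 4742 CPM, and so did Fezf2, a regulator of tissue antigen genes in medullary epithelium, at 1.08 and 89.7 CPM. The 54 mTEC1 cells of TEC-c held 326 CPM of Ackr4 and 9440 of Ccl21 together, with a median cell at 108 for Ccl21. The 16 mTEC1 cells of TEC-a held Ccl21 at 13010 CPM and Ccl19 at 10498, with 0 Ackr4 UMIs. In early Pr, the 878 cells of TEC-b were at 1030 CPM of Ackr4 and 81.6 of Ccl21, and the 120 cells of TEC-c at 652 and 1516. The median early Pr cell held 67.6 CPM of Ccl21 in TEC-b and 49.2 in TEC-c, so the higher sum of TEC-c did not hold for its typical cell. The mTEC-prol cells of TEC-d held 2.32 CPM of Ackr4 and 6888 of Ccl21, while the mTEC2 cells of TEC-d were low in both, at 9.50 and 372.

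**Figure D4:**
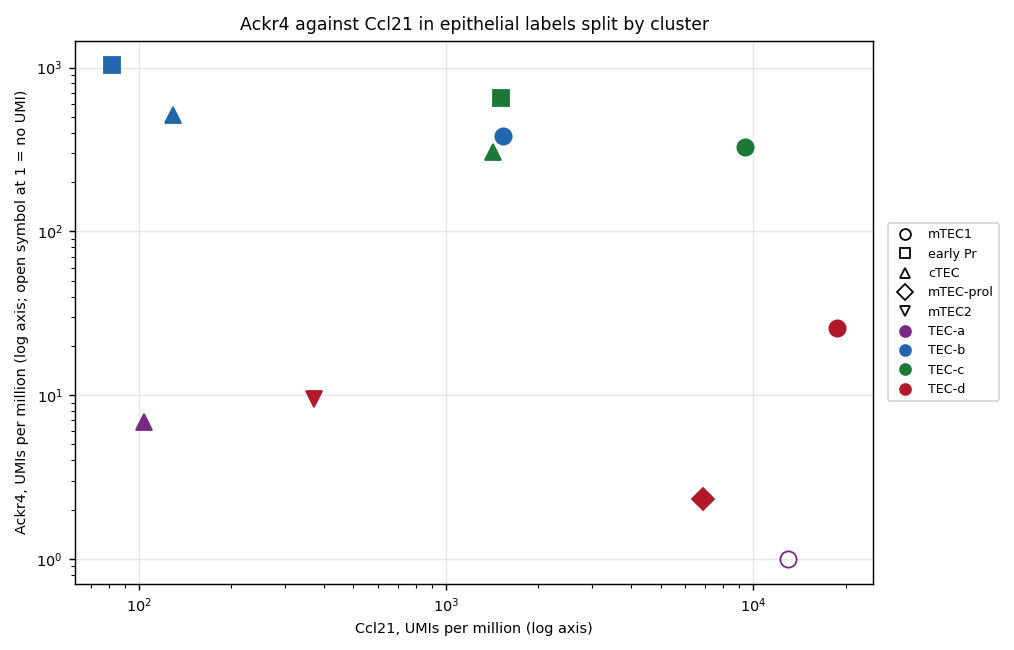
Ackr4 against Ccl21 (CPM, log axes) in epithelial labels split by the authors' cluster, for sets of at least 10 cells; shape gives the label, colour the cluster, and the open symbol placed at 1 had no Ackr4 UMI. Sets of TEC-b lie high in Ackr4 (380 to 1030), sets of TEC-d low (2.32 to 25.7).

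The cTEC label was mixed in Ackr4 more than in Ccl21. Its 72 cells of cluster TEC-a held Psmb11, the cortical proteasome subunit, at 39.1 CPM and Ccl25, a cortical chemokine, at 2348, and Ackr4 at 6.81 on 4 UMIs beside Ccl21 at 104. The 311 cells of TEC-b held Psmb11 at 7.06, Ccl25 at 271, Krt5 at 3954 against 556 in TEC-a, and Ackr4 at 510 beside Ccl21 at 129. The 55 cells of TEC-c held both, with Ackr4 at 307 and Ccl21 at 1427, although their median cell was at 51.7 for Ccl21. Prss16, a protease gene of cortical epithelium, was at 145 CPM in TEC-a and 228 in TEC-b, but was found in 44.4% of TEC-a cells (median 4518.5 UMIs) and in only 22.5% of the deeper TEC-b cells (median 10757). Psmb11 was found in 8.93% of the whole label. The Ackr4 of the label therefore lay mainly in cells with less Psmb11 and Ccl25 and more Krt5, a keratin known from medullary and progenitor epithelium. The early Pr label, highest in Ackr4, held Krt5 at 2699, Krt14 at 3845 and Psmb11 at 0.659 CPM.

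Splitting mTEC1 into 4 sets of 120 or 121 cells by Ccl21 level showed which genes moved with it inside the label. The sets reached from 0 to 70.7, 71.3 to 1135, 1144 to 12205 and 12259 to 108334 CPM of Ccl21, and 12.7%, 10.2% and 19.9% of cells lay within a factor of 2 of the cuts. From the lowest to the highest set Ackr4 was at 312, 354, 46.7 and 48.1 CPM, with a median cell at 166, 102, 0 and 0. Ccl19 was at 997, 623, 3361 and 6683 CPM. Tnfrsf11a, which encodes RANK, was at 7.21, 31.2, 92.8 and 59.8, Relb at 49.8, 89.6, 150 and 136, and Cd40 at 39.7, 44.4, 81.6 and 114. Ltbr had no such order, at 86.6, 58.4, 55.4 and 66.5. Krt14 was highest in the lowest set (5462, against 4175, 2275 and 3147). The 4 mural markers summed to 495, 419, 2623 and 4654 CPM from the lowest to the highest set, against 105 in early Pr. This was mainly Tagln (449, 267, 1742 and 3193) and Acta2, smooth muscle actin (33.9, 140, 860 and 1451), while the 4 values of Rgs5 lay between 1.44 and 5.76 CPM and those of Myh11 between 5.76 and 14.95. In the highest set Tagln was found in 92.6% of cells with a median cell at 2179 CPM. The 6 mesenchymal markers summed to 3395, 3376, 1509 and 1137 CPM; among them Pdgfrb had no such order (28.9, 18.9, 19.9 and 24.7), and Col1a1 fell from 577 to 177 CPM although the share of cells with it was 35.5% in the lowest and 51.2% in the highest, deepest set. The 6 epithelial markers were at 12616, 10346, 9103 and 11100. The part of mural RNA in the Ccl21 of mTEC1 was not tested.

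The comparison of mTEC1 with early Pr gave the induction genes that differed together with the ligands between these labels. Ccl21 was 37.3-fold (36.1 to 38.5) and Ccl19 11.3-fold (10.9 to 11.7) higher in mTEC1, where 3.5% of 11244 genes were at least 3-fold higher; 0.88% were at least 3-fold lower, among them Ackr4. Without its deepest cells early Pr held 221 CPM of Ccl21 in place of 335. Of 7 induction genes tested, 2 passed: Tnfrsf11a (18.9-fold, 13.2 to 27.0) and Cd40 (3.09-fold, 2.68 to 3.56). Both were higher still in mTEC2, where both ligands were lower than in mTEC1. Tnfrsf11a was at 276 CPM in mTEC2 and 51.3 in mTEC1, and Cd40 at 189 and 76.8. Relb (1.86-fold), Nfkb2 (2.14-fold) and Map3k14 (2.08-fold) lay under the cut, and the list had a median log2 ratio of 1.10 beside 0.04 over all genes. None of 6 tested guidance genes passed, and Cxcl12 was at 719 CPM in mTEC1 and 1866 in early Pr.

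Ccr7 was rare in the stromal library, with 49 UMIs in all, and 24 of these lay in mTEC2. Its level there was 27.4 CPM (17.6 to 40.8), in 10 of 61 cells (16.4%; median 13378 UMIs per cell), against 1 UMI in 482 mTEC1 cells (0.155 CPM; median 11915.5), a ratio of 176 with an interval of 23.9 to 1304. TMC4, TMC1, early Pr, cTEC and vSMC/PC had 0 UMIs; 3 UMIs, the limit taken for a count of 0, would be 0.260 CPM in TMC4 and 0.889 in vSMC/PC. The stromal label Thymocyte held 6 UMIs (3.50 CPM). The 10 cells held 9, 5, 2, 2 and 6 times 1 Ccr7 UMI, so 2 cells carried 14 of the 24. All 10 held Epcam and Fscn1, 6 held Aire and none held Lamp3. Among the other 51 mTEC2 cells, 40 held Epcam, 23 Fscn1, 34 Aire and only 1 Lamp3. Fscn1 and Lamp3 are known from mature dendritic cells, which also carry CCR7. Over these cells the epithelial list was at 5254 CPM (6016 in the other 51), the myeloid list at 447 (282 in the others and 16.3 in mTEC1) and 10 thymocyte genes at 112 (206). The cell with 9 Ccr7 UMIs held 37 epithelial and 0 myeloid UMIs, but also 14 of Il7r, the IL-7 receptor of lymphoid cells, and 23 of Cd83, a marker of activated dendritic cells, and 0 of Aire, Ccl19 and Ccl21. The cell with 5 held 76 epithelial and 56 myeloid UMIs, and none of the rest of the 10 held more than 6 myeloid UMIs. Myeloid UMIs were found in 4 of the 10 cells and in 32 of the other 51. Il7r was at 138 CPM in the 10 cells, found in 2 of them, and 5.53 in the other 51. Cd83 was at 723 and 438. Of other genes on the dendritic cell list, Fscn1 was at 250 and 138, and Relb at 151 and 145. Summed over cells, Cd40 was at 178 (117 to 258) and 191 (160 to 225), and Ccl22 at 618 and 803. Counted by cell the order was the other way. Cd40 was found in 80% of the 10 cells and 56.9% of the other 51, and Ccl22 in 60% and 37.3%. The 10 cells were deeper, with a median of 14010.5 UMIs against 11712. Of their 94 Ccl22 UMIs, 71 lay in 1 cell. Without the cells that held 3 or more thymocyte-gene UMIs, 21 of the 24 UMIs were left and the level was 33.9 CPM; thinned to 1000 UMIs per cell, 2 UMIs were left in mTEC2. The part of myeloid or lymphoid RNA in the result was not tested. The 10 cells were low in both ligands, with Ccl19 at 355 CPM against 1272 in the others and Ccl21 at 85.5 against 420.

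Among thymocytes, Ccr7 was carried by the stages after selection. The library held 354 labelled UMIs in 261 cells (3.05%). Before selection it was close to nothing: 0.185 CPM in DN (2 UMIs), 0.292 in DP-P (5 UMIs) and 0.211 in DP (4 UMIs in 5202 cells; 0.0769% of cells, median 3206 UMIs). The signalled labels Pre DP-sig (3.33), DP-sig (2.33) and Immature CD8-1 (3.05) held 3 or 4 UMIs each. Immature CD4-1 stood at 18.2 (9.97 to 30.6), 7.83-fold above DP-sig (2.25 to 27.3), and Immature CD8-2 at 35.1, 11.5-fold above Immature CD8-1 (3.41 to 38.9). intCD4 held 55.6, Mature CD4-1 59.1 (45.1 to 76.0; 35.5% of 121 cells, median 7964 UMIs) and Mature CD4-2 39.1 (29.9% of 127 cells). Mature CD8-1 was at 24.3 and Mature CD8-2 at 26.6.

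**Figure D5:**
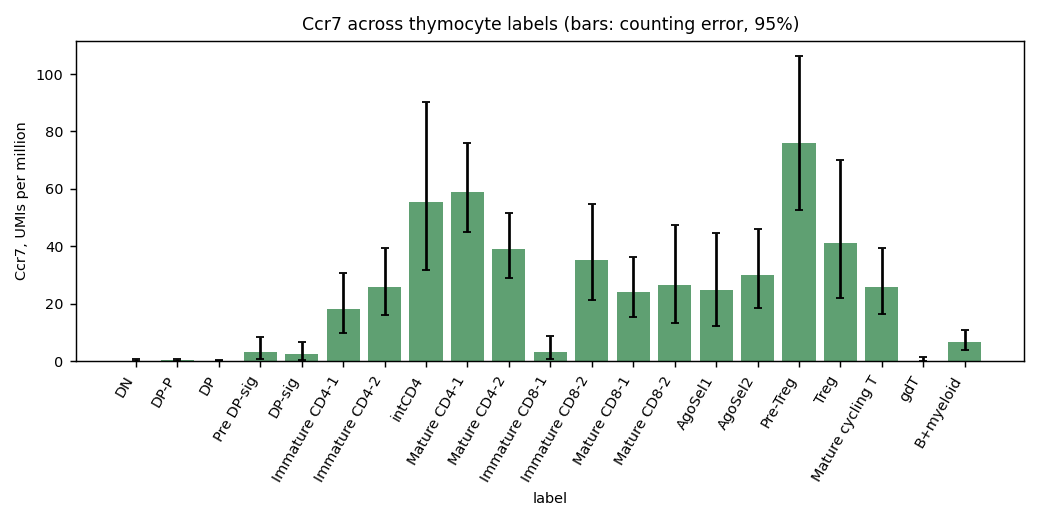
Ccr7 (CPM) in the 21 labels of the thymocyte library with at least 20 cells; bars start at 0 and error bars are 95% counting intervals. DN, DP-P, DP and gdT lie at or near 0, and Pre-Treg (76.1), Mature CD4-1 (59.1) and intCD4 (55.6) are the tallest.

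The highest level was that of Pre-Treg, 76.1 CPM (52.7 to 106; 34 UMIs, 34.5% of 55 cells), next to 41.0 in Treg (13 UMIs), with a ratio of 1.85 (0.978 to 3.51). Its lead over Mature CD4-1 was 1.29 (0.846 to 1.96), short of the 3-fold lead that 6.28% of 12215 genes had in this library. On totals without mitochondrial, ribosomal and haemoglobin genes the levels were higher, 119 CPM in Pre-Treg and 97.3 in Mature CD4-1. Every pair of neighbours from Pre-Treg down to Immature CD4-1, 13 labels in all, had an interval that includes 1. Pooled, the mature CD4 and CD8 labels held 39.4 CPM (143 UMIs, 30.3% of 366 cells, median 9572 UMIs), 186-fold the level of DP (68.9 to 503), an interval set by the 4 UMIs of DP; without the deepest cells of each label, 1 DP UMI was left and the ratio was 739. Mature CD4 labels held 1.92-fold more than mature CD8 labels (1.31 to 2.83), and 2.17-fold more than immature CD4 labels (1.48 to 3.18). The agonist-selected labels AgoSel1 (24.9) and AgoSel2 (30.1) lay among the mature ones. In gdT, 0 UMIs were found in 128 cells, and 3 UMIs would be 1.10 CPM.

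The other genes of thymocyte migration gave Ccr7 a setting. From DP to the mature labels 4.56% of 9631 genes were at least 3-fold higher and 9.26% at least 3-fold lower, and Ccr7, the 1 member tested, was among the former. Of 11 migration and maturation genes, 9 were tested, 5 were higher and 1 lower, with a median log2 ratio of 3.06 beside -0.32 over all genes. Those higher were Il7r (250-fold), S1pr1, the receptor for thymic exit (121-fold), its regulator Klf2 (20.1-fold), Cd69 (19.5-fold) and Foxo1 (8.35-fold). Ccr9, the receptor for CCL25, was the 1 lower, from 499 CPM in DP to 68.6, and Cxcr4 was at 129 CPM in both. The order of receptors was not the same along the stages. Immature CD4-1 held Ccr7 at 18.2 CPM and Ccr4 at 71.7 (55 UMIs), while S1pr1 was still at 2.61. This was the highest Ccr4 level, but by only 1.06-fold over AgoSel1 (67.8, 30 UMIs). In DP-sig Ccr4 was already at 63.6 (82 UMIs), with Ccr7 at 2.33. S1pr1 was at 44.1 in Immature CD4-2 and 219 in Mature CD4-1, where Klf2 (481) was also highest. Tnfsf11 and Cd40lg, the ligands of RANK and CD40, were higher in mature labels than in DP (144-fold and 445-fold). Across the 17 labels of at least 50 cells the genes most like Ccr7 were Pja1 (0.956), Ly6c (0.952) and Pim2 (0.947) among 12215.

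The ligands and the scavenger were nearly absent from the thymocyte library, with 2 Ccl21, 48 Ccl19 and 56 Ackr4 labelled UMIs. The label B+myeloid held 43 of the Ccl19 and 54 of the Ackr4 UMIs. Of these, 28 Ccl19 UMIs lay in 1 cell with 82 Krt8 UMIs, and 48 Ackr4 UMIs in 1 cell with 42 Epcam UMIs; Krt8 and Epcam mark epithelium. Ccr7 in B+myeloid was at 6.69 CPM (16 UMIs in 9 of 170 cells). The 9 cells held 10 genes of mature dendritic cells at 4197 CPM, against 792 in the other 161, and 4 B lineage genes at 1376 against 387. Of the 16 UMIs, 9 lay in 3 cells with Fscn1 and no Cd79a, and 5 in the 5 cells with Cd79a, a chain of the B cell receptor.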

How the data were processed

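The authors deposited raw UMI counts; Cell Ranger 8.0.0, Seurat 5.3.0 and genome build mRatBN7.2 are named, per the submitters' processing notes, without a role; the annotation is not given in the sources used here, nor is how reads of near-identical gene copies were counted. The deposited percent of mitochondrial UMIs equals the share of 2 mitochondrial ribosomal RNA genes in all 13226 and 8546 labelled cells. A cell's label is the authors' projected label where given and otherwise their cluster. UMIs were summed per label of at least 20 cells and divided by the label's total (CPM). Intervals at 95% are exact Poisson for levels, Clopper-Pearson for shares and log-normal for ratios. A count of 0 was set to 3 in a ratio; in the calls and medians over gene lists, counts of 1 and 2 were also set to 3, which among the listed genes tested touched Ackr2 in TMC4. Genes entered comparisons with at least 100 UMIs and were called at 3-fold. For a lead over the next label, a call also needed at least 20 UMIs in the highest label. Likeness was Pearson's r of log2(CPM + 1) over labels of at least 50 cells. Cells below 1000 UMIs (83 of the stroma, 51 of the thymocyte library) were dropped when cells were thinned to that depth. No doublet caller was run. Cells of 1 library are not replicates, so intervals cover counting error only.

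The members and lists were chosen with earlier results of these data known. Named genes are the members, genes of the lists for ligand induction, guidance, atypical receptors, thymocyte migration, dendritic cells and cell type markers, and the 3 genes most like each member. Also, 1 gene of the thymocyte migration list is not reported here and is left out of its counts. The splits by Prox1 and Lyve1, by the 1000 CPM cut, by Ccl21 level within mTEC1 and by cluster within a label were chosen after values were seen, as were Alk, Cdh19, Flt4 and the CATAAAT letters. The calling rule was tested on simulated data. Alternatives changed the cell filters, the total, the summing, the depth and the label column. Software was pandas 2.3.3, SciPy 1.17.1, NumPy 2.4.6 and matplotlib 3.10.9 under Python 3.11.15, with seed 7. The 2 tables of the section hold no gene levels and were left out.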

Additional observations from a re-analysis of the deposited data

Results flagged for a closer look

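The 2934 stromal barcodes that the authors left without a label, which enter no comparison, held the members above the level that 3 UMIs would give (0.346 CPM). Ccl21 was at 2690 CPM there (labelled cells 3540), Ccl19 at 1067 (2090), Ackr4 at 73.4 (152) and Ccr7 at 1.15 (0.372, on 10 and 49 UMIs). The 67 of these barcodes with more genes than any labelled cell held 52.1% of that Ccl21, 46.3% of the Ccl19, 25% of the Ackr4 and 6 of the 10 Ccr7 UMIs. Their part in the labelled levels was not tested.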

How the results depend on the processing

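Of 701 levels recomputed under the alternatives, which have no direction, 485 stayed within counting error and 216 moved, 70 of them by over 1.5-fold. Of 132 ratios and counts, 92 stayed, 40 moved (12 by over 1.5-fold) and 0 changed direction. The Ccl21 lead of TMC4 over the next label (1.77) was 1.73 without the deepest cells (below the 99th percentile of UMIs), 2.02 as a mean of cells, 1.67 on totals without mitochondrial, ribosomal and haemoglobin genes, 1.80 on totals without the members, 2.01 thinned and 1.68 by cluster alone. The Ccl19 lead (1.54) was, in the same order up to thinning, 1.51, 1.73, 1.51, 1.57 and 1.71. The Ackr4 lead (2.30) was 2.47 as a mean of cells, 2.19 thinned and 1.69 by cluster (TEC-b over TEC-c). The Ccr7 lead (1.29) was 5.81 by cluster, which joins the mature labels. Ccr7 in mature labels over DP (186) was 739 without the deepest cells (142 UMIs against 1), 696 as a mean of cells and at least 61.1-fold thinned (13 UMIs against 0, set to 3). The Ccl21 per Ccl19 ratio of mTEC1 over TMC4 (2.21) was 2.25 without the deepest cells, 2.15 as a mean, 2.09 thinned and 2.25 without cells with thymocyte genes. Genes with a 3-fold lead numbered 903 in the stroma, 286 thinned and 1483 by cluster, and 767 in the thymocyte library, 112 thinned; fewer UMIs and fewer groups make these counts by construction, and the cause of the other shifts was not tested. Thinning left 2 Ccr7 UMIs in mTEC2 and 0 in mTEC1, too few for a ratio. The endothelial Ccl21 difference (105) was 155 as a mean of cells and 176 thinned. No paired analysis was possible because the stroma and the thymocytes were 1 library each. With 354 and 49 Ccr7 UMIs most neighbouring labels are unresolved for this gene.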
